A study of Mus musculus with 12 samples.

Results

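The 10 genes described here encode feedback inhibitors of receptor tyrosine kinase signaling through the kinase ERK: the phosphatases *Dusp1*, *Dusp4*, *Dusp5* and *Dusp6*, the Sprouty proteins *Spry1*, *Spry2* and *Spry4*, and the Sprouty-related proteins *Spred1*, *Spred2* and *Spred3*. They were chosen by gene symbol, with no measured value used in the rule. All 10 were among the 51490 genes of the count table, and all 10 were among the 15037 genes that passed a filter for low counts and were tested. RNA-seq of polyadenylated RNA was performed on immortalized mouse embryonic palatal mesenchyme (iMEPM) cells, a model of the cells that form the palate, to ask which expression changes downstream of the receptor PDGFRα depend on the splicing factor Srsf3. All cells came from 1 line, which was made from a male embryo lacking *Cdkn2a* (*Cdkn2a*-/-), and carried an integrated lentiviral shRNA, so that no group was unmodified. The scramble line expressed a control shRNA, and the shSrsf3 line expressed an shRNA against the 3’ UTR of *Srsf3*. Each line was either left without ligand (-PDGF-AA) or stimulated for 1 hr with the ligand PDGF-AA at 10 ng/mL (+PDGF-AA), and each of the 4 conditions had 3 independent biological replicates. To induce PDGFRα signaling, the methods describe serum starvation before ligand, a step that their section on RNA-seq does not restate. Each shRNA was represented by 1 stable line, selected with puromycin and sorted for GFP, so that the effects of the knockdown and of the line cannot be told apart. Total counts of the 12 samples lay between 30958966 and 76123359. Depth differed between groups, with 30958966 to 37334733 in the shSrsf3 +PDGF-AA samples and 57313132 to 65707963 in the scramble +PDGF-AA samples. The part of depth in the numbers of genes called was not tested.

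When a growth factor such as PDGF-AA binds its receptor, the signal passes through Ras and the kinases Raf and MEK to ERK, which enters the nucleus and activates transcription factors. Among the genes that ERK turns on are inhibitors of the same pathway. Dusp proteins remove phosphate from ERK and related MAP kinases, Sprouty proteins act between the receptor and ERK, and Spred proteins bring the Ras inactivator neurofibromin to the membrane. The transcripts of several of these genes are short-lived and are therefore widely read as a record of recent ERK activity, and mutations in this pathway are a known cause of craniofacial disorders.

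The promoters of 3 Dusp genes are shown because they differ in the sites known to bind regulators that respond to growth factor signals. The sequences are from the RefSeq promoter table, which uses the build GRCm38.p6 rather than the build GRCm39 of the deposited counts, and which held an entry for 8 of the 10 genes (250 bases before to 50 bases after each start). *Dusp4* and *Spry4* had no entry. Each run is written 5’ to 3’ on the strand of the gene. Capitals in *Dusp5* (chr19:53529035-53529114, plus strand) mark 2 adjacent CArG boxes, the site of serum response factor, written CC, 6 bases of A or T, and GG. Capitals in *Dusp1* (chr17:26508593-26508682, minus strand) mark the CRE TGACGTCA, the site of CREB and ATF factors, and a separate CRE half-site TGACG. The run of *Dusp5* also holds a CRE half-site, read on the opposite strand and beginning 55 bases upstream of the start, which is left in lower case. *Dusp6* (chr10:99263121-99263200, plus strand) had no match to any of the motifs searched and is shown for comparison.
Dusp5: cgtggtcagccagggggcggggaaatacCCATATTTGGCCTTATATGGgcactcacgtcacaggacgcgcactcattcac
Dusp1: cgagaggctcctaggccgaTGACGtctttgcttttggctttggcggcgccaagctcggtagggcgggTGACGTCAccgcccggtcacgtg
Dusp6: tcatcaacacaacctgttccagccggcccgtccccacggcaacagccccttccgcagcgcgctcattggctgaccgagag
The CArG boxes of *Dusp5* began 82 and 72 bases upstream of the annotated start, and no other member promoter in the table had one. Of all 32851 promoters in the table, 1.63% had a CArG box on either strand. The CRE of *Dusp1* began 143 bases upstream of the start, and 1.79% of all promoters had one. The CRE half-site TGACG, which every full CRE also contains, was found in *Dusp1*, *Dusp5* and *Spred2*, against 20.8% of all promoters. The AP-1 site TGANTCA was in 0 of the 8 promoters (7.81% of all), and the ETS site CCGGAA was in *Spry2* alone (14.9% of all), downstream of the start. A match describes these letters only and does not show that a factor is bound.

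The targeted gene was examined first. *Srsf3* RNA measured 207, 199 and 212 CPM (counts per 1000000 counts of the library, with the library totals scaled by TMM factors) in the scramble -PDGF-AA samples and 162, 164 and 161 CPM in the shSrsf3 -PDGF-AA samples. In the presence of ligand it measured 221, 215 and 231 CPM in scramble and 164, 161 and 169.6 CPM in shSrsf3 samples. The lines did not overlap, and *Srsf3* RNA in shSrsf3 cells differed by -0.34 on the log2 scale without and -0.43 with ligand (adjusted p = 7.95e-06 and 9.54e-07, edgeR). These are RNA values, and the paper reports a larger decrease of Srsf3 protein in the shSrsf3 line by western blot. The mesenchymal markers *Col1a1*, *Col1a2*, *Vim*, *Prrx1*, *Twist1*, *Pdgfra* and *Msx1* were all detected, with a summed level between 31168.7 and 36657.9 CPM per sample. Among them *Msx1* was low, at 0.547 to 1.81 CPM. In shSrsf3 cells 4 of the 7 were lower and 1 was higher than in scramble cells, without and with ligand (adjusted p of 0.05 or less, edgeR). By this rule, 23.7% and 20.7% of all tested genes were lower, and 22.2% and 20.3% were higher. The 17 listed markers of other cell types did not exceed 2.85 CPM, and *Sox10*, *Foxd3* and *Myod1* were at 0 in all 12 samples. The summed epithelial markers were lower in shSrsf3 samples (0.537 to 0.998 CPM, against 2.09 to 3.30 CPM in scramble) and the summed endothelial markers were higher (2.14 to 2.70 CPM, against 0.727 to 1.22 CPM). Without ligand the epithelial difference was mainly that of *Cdh1* (mean 2.36 CPM in scramble, 0.484 CPM in shSrsf3), and *Epcam* was not called. Of the endothelial markers, *Cdh5* and *Kdr* were then called higher, whereas *Pecam1* had a negative value and was not called (-0.61, adjusted p = 0.144, edgeR). The part of these markers in the differences between the lines was not tested. In such bulk samples, a change in the share of cells that express a gene and a change in RNA per cell cannot be told apart.

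PDGF-AA for 1 hr raised 5 of the 10 feedback genes in scramble cells: *Dusp4*, *Dusp5*, *Dusp6*, *Spry1* and *Spry4*. No member was called lower, although *Dusp1* had an unadjusted p under 0.05 with a negative sign and was called lower in 2 of the other fits. Calls required adjusted p values no higher than 0.05 in edgeR's quasi-likelihood test over all 15037 genes, a rule by which 2.00% of all tested genes were higher and 2.04% were lower. The increases were between 1.26-fold and 1.60-fold, so that 0 of the 10 reached 2-fold, a rule met by 0.0931% of tested genes. The median log2 fold change of the 10 genes was 0.23, beside -0.0096 over all tested genes.

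*Spry4* and *Dusp5* had the largest increases of the 10 genes. *Dusp5*, a nuclear phosphatase that acts on ERK, measured 24.1, 26.02 and 24.7 CPM in the scramble -PDGF-AA samples and 39.2, 39.8 and 40.6 CPM in the +PDGF-AA samples. The groups lay far apart relative to their spread, and their log2 fold change was 0.68 ± 0.0553 (standard error, edgeR adjusted p = 1.40e-05). *Spry4*, an inhibitor of the step from receptor to Ras and Raf, measured 12.1, 12.5 and 12.1 CPM without and 20.1, 19.7 and 19.04 CPM with ligand (log2 fold change 0.68 ± 0.0554 standard error, edgeR adjusted p = 1.40e-05). The intervals of these 2 fold changes (0.557 to 0.795 and 0.562 to 0.801, 95%) covered nearly the same range.

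*Dusp4*, a nuclear phosphatase of ERK and other MAP kinases, measured 44.9, 43.7 and 42.5 CPM in the scramble -PDGF-AA samples and 67.6, 61.2 and 62.9 CPM in the +PDGF-AA samples (log2 fold change 0.55 ± 0.0726 standard error, edgeR adjusted p = 8.20e-04). *Dusp6*, a cytoplasmic phosphatase selective for ERK, measured 34.7, 35.5 and 37.0 CPM without and 44.9, 43.6 and 46.6 CPM with ligand, a smaller difference of 0.33 (standard error 0.0419, adjusted p = 5.31e-04, edgeR). For both genes all 3 stimulated samples were above all 3 unstimulated samples. *Spry1*, a Sprouty protein with a known role in development of the kidney, measured 12.1, 15.3 and 14.9 CPM without and 16.9, 21 and 18.3 CPM with ligand. Its groups were separated by a small gap, and its call (log2 fold change 0.41 ± 0.0918 standard error, edgeR adjusted p = 0.0240) was lost without any 1 of 3 samples. The values were 0.32 without scramble -PDGF-AA replicate 1 (adjusted p = 0.0720), 0.32 without scramble +PDGF-AA replicate 2 (adjusted p = 0.0623), and 0.42 without scramble +PDGF-AA replicate 3 (adjusted p = 0.0752, edgeR). The call was also lost with only the 2 groups compared (0.42, adjusted p = 0.104) and in the 9 libraries with higher mapping rates (0.24, adjusted p = 0.163, edgeR). These leave out the 3 samples with the lowest Salmon mapping rates in the methods, so that 1 unstimulated scramble sample remains, its spread being taken from the other 3 groups.

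The other 5 genes were not called in scramble cells. *Spry2* measured 26.7, 26.4 and 24.3 CPM without and 27.9, 28.2 and 28.5 CPM with ligand, so that the groups did not overlap but were close (log2 fold change 0.13, adjusted p = 0.127, edgeR). With *Spry2*, 6 of the 10 members had all stimulated samples above all unstimulated samples, a pattern found in 8.92% of tested genes. *Dusp1*, an early phosphatase of p38, JNK and ERK, measured 93.8, 84.9 and 61.0 CPM without ligand and 56.6, 62.2 and 66.0 CPM with ligand. Its unstimulated samples were the most spread of any member, and replicate 3 lay within the range of the stimulated samples. Its log2 fold change was -0.37 (adjusted p = 0.108, edgeR). It was -0.52 and called without scramble -PDGF-AA replicate 3 (adjusted p = 0.00144, edgeR), and -0.37 and called without the filter for low counts (adjusted p = 3.62e-09, edgeR). Without the filter the size of the *Dusp1* change stayed the same and only its p moved, in a setting that called 1289 genes in place of 608. The p of that setting is thus not read as stronger evidence. In the 9 libraries with higher mapping rates, where replicate 3 was the only unstimulated scramble sample, the value was 0.0065. The 3 Spred genes had log2 fold changes between -0.05 and -0.02, and the widest of their 95% intervals, that of *Spred3*, reached from -0.172 to 0.113.

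**Figure D1:**
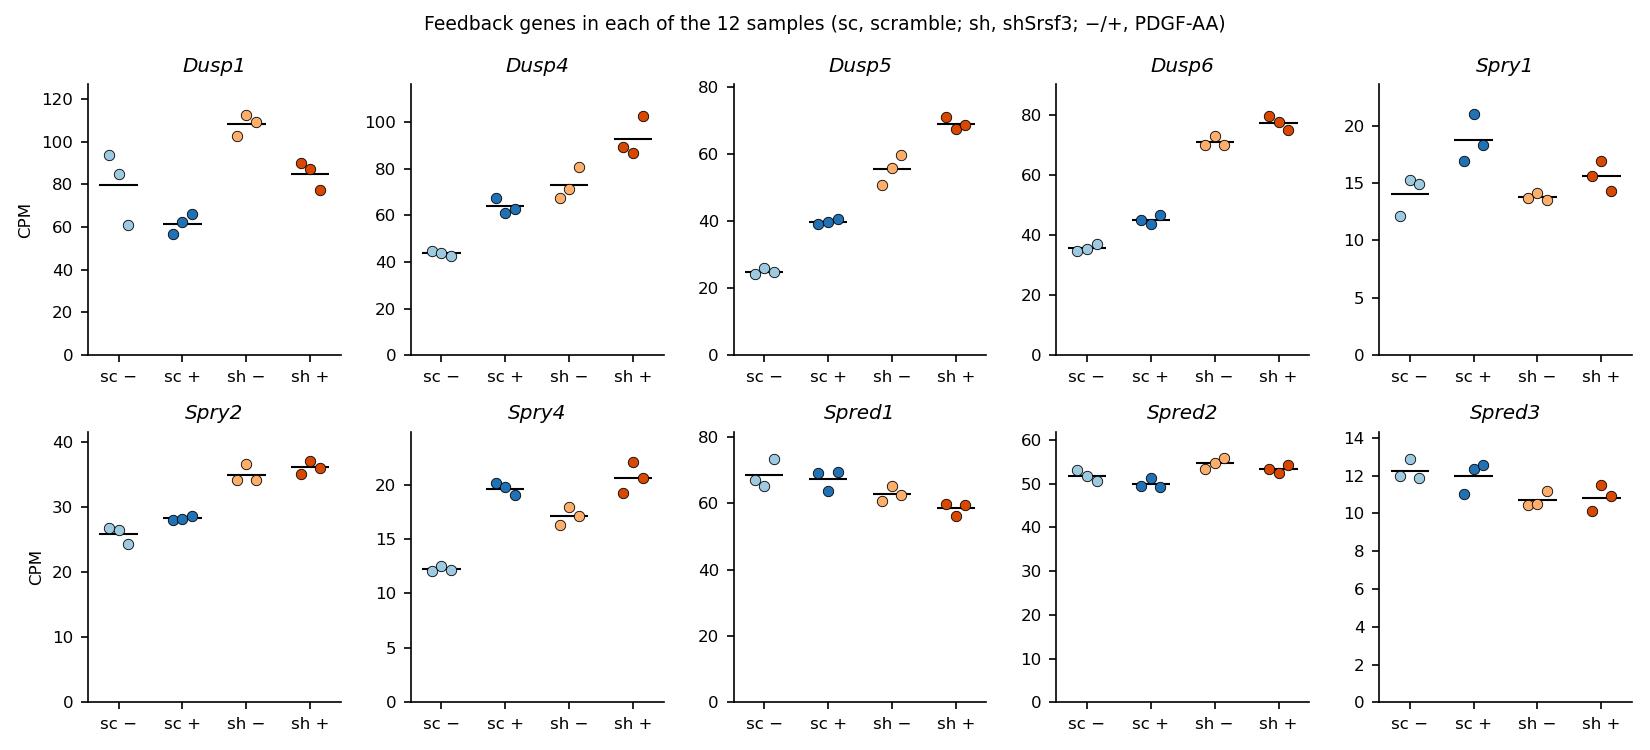
Level of each feedback gene in CPM (vertical axis, starting at 0) in each of the 12 samples, grouped by line and ligand; points are samples and bars are group means. *Dusp5* and *Dusp6* step upward across the 4 conditions without overlap, *Dusp1* has 3 widely spread scramble -PDGF-AA samples (61.0 to 93.8 CPM), and the Spred genes vary little.

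In shSrsf3 cells, PDGF-AA raised 2 of the 10 feedback genes, *Dusp5* and *Spry4*, by 1.25-fold and 1.21-fold. These increases were called in the background of 0.426% of tested genes called higher and 0.140% called lower, and 0 of the 10 members reached 2-fold (0.0399% of tested genes did). No member was called lower in this fit of all 12 samples, where *Dusp1* again had an unadjusted p under 0.05 with a negative sign, but *Dusp1* was called lower in 4 of the other fits. The 5 genes called in scramble cells were also the 5 members with all stimulated shSrsf3 samples above all unstimulated ones, a pattern of 8.59% of tested genes. The median log2 fold change of the members was 0.09, beside -0.0044 over all tested genes.

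*Dusp5* measured 50.7, 55.8 and 59.8 CPM in the shSrsf3 -PDGF-AA samples and 71.1, 67.5 and 68.6 CPM in the +PDGF-AA samples (log2 fold change 0.32 ± 0.0535 standard error, edgeR adjusted p = 0.0131). *Spry4* measured 16.3, 17.9 and 17.1 CPM without and 19.3, 22.1 and 20.6 CPM with ligand (0.27, standard error 0.0551, adjusted p = 0.0467, edgeR). The call of *Spry4* was close to the threshold, and both calls depended on single samples. That of *Dusp5* was lost without shSrsf3 -PDGF-AA replicate 1 (0.26, adjusted p = 0.0673), without shSrsf3 -PDGF-AA replicate 2 (0.32, adjusted p = 0.0757) or without shSrsf3 +PDGF-AA replicate 1 (0.30, adjusted p = 0.0724, edgeR). That of *Spry4* was lost in 10 of the 12 fits that left out 1 sample, scramble samples included, with values between 0.22 and 0.31 and adjusted p between 0.0601 and 0.286 (edgeR). It was kept without scramble -PDGF-AA replicate 3 and without shSrsf3 +PDGF-AA replicate 1.

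*Dusp4* lay just outside the threshold in shSrsf3 cells, at 67.5, 71.2 and 80.8 CPM without and 89.4, 86.8 and 103 CPM with ligand (log2 fold change 0.35, adjusted p = 0.0513, edgeR). Its value was nearly the same, and called, with DESeq2 (0.35, adjusted p = 2.46e-04). It was also called with relative log expression factors (0.35, adjusted p = 0.0468) and with the replicate number as a block (0.35, adjusted p = 0.0483, edgeR). With only the 2 groups compared (0.35, adjusted p = 0.0323, edgeR) and without the filter for low counts (0.34) it was called as well. *Dusp6* measured 70.1, 72.8 and 70.0 CPM without and 79.7, 77.7 and 75.0 CPM with ligand (0.13, adjusted p = 0.278, edgeR). *Spry1* measured 13.7, 14.1 and 13.5 CPM without and 15.6, 16.9 and 14.3 CPM with ligand (0.18, adjusted p = 0.607, edgeR). The stimulated samples of these 3 genes were all above the unstimulated ones, by small margins for *Dusp6* and *Spry1*. *Dusp1* measured 103, 112 and 109 CPM without and 90.0, 87.2 and 77.2 CPM with ligand. All stimulated samples of *Dusp1* were below all unstimulated samples in this line, with a log2 fold change of -0.35 (adjusted p = 0.300, edgeR) that was close to the -0.37 of scramble cells. This value was called lower with only the 2 groups compared in the fit (-0.35, adjusted p = 0.00925), without the filter for low counts (-0.35, adjusted p = 2.55e-08), without scramble -PDGF-AA replicate 3 (-0.35, adjusted p = 0.0234), and in the 9 libraries with higher mapping rates (-0.35, adjusted p = 0.0169, edgeR). The *Dusp1* value did not change without the filter, a setting that called 374 genes in place of 85, so its p there is not read as stronger evidence. *Spry2* and the 3 Spred genes had log2 fold changes between -0.10 and 0.04.

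In the absence of ligand, shSrsf3 cells had more RNA of all 4 Dusp genes and of *Spry2* and *Spry4* than scramble cells, and less *Spred3*. *Dusp5* (2.22-fold) and *Dusp6* (1.99-fold) had the largest values, which stand beside 1.60-fold and 1.26-fold upon ligand in scramble cells, and *Dusp5* was the only member past 2-fold. Many genes differed between the lines, with 22.2% of tested genes higher in shSrsf3 cells, 23.7% lower, and 2.99% higher by 2-fold. The count of 6 members higher and 1 lower is thus read against a wide background. The median of the 10 genes was 0.44 on the log2 scale, beside -0.0156 over all tested genes. In the presence of ligand, 5 members were higher and 2 were lower, beside 20.3% and 20.7% of tested genes, and 0 of the 10 passed 2-fold (2.85% of tested genes were higher by this rule). The comparison of the lines without ligand shares its scramble -PDGF-AA samples with the ligand comparison in scramble cells, so their values are given side by side without a test of overlap.

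*Dusp5* rose from 24.1 to 26.02 CPM in scramble -PDGF-AA samples to 50.7 to 59.8 CPM in shSrsf3 -PDGF-AA samples (log2 fold change 1.15 ± 0.0553 standard error, edgeR adjusted p = 2.59e-09). Unstimulated shSrsf3 samples thus also lay above the stimulated scramble samples, which reached 40.6 CPM. *Dusp6* rose from 34.7 to 37.0 CPM to 70.0 to 72.8 CPM (0.99, standard error 0.0419, adjusted p = 8.84e-10, edgeR), likewise above the 46.6 CPM reached in stimulated scramble samples. With ligand the difference between the lines was 0.79 for *Dusp5* and 0.78 for *Dusp6* (adjusted p = 7.74e-08 and 7.44e-09, edgeR). The groups did not overlap in either comparison. Including these genes, 7 members without ligand (the 4 Dusp genes, *Spry2*, *Spry4* and, by a narrow gap, *Spred2*) and 6 with ligand (the same genes without *Spry4*) had all shSrsf3 samples above all scramble samples, patterns of 26.2% and 25.5% of tested genes.

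*Dusp4* was higher in shSrsf3 cells by 0.74 on the log2 scale without ligand and by 0.54 with ligand (adjusted p = 2.42e-06 and 4.23e-05, edgeR). Its highest stimulated scramble sample (67.6 CPM) and its lowest unstimulated shSrsf3 sample (67.5 CPM) were at the same level. *Dusp1* was higher by 0.44 and 0.46 (adjusted p = 0.00796 and 0.00698, edgeR), and its value without ligand ranged from 0.29 without scramble -PDGF-AA replicate 3 to 0.58 without replicate 1 of that group, called in both. *Dusp1* was thus called higher in shSrsf3 than in scramble cells and had negative values upon ligand, which were called in some of the alternative fits. In contrast, *Dusp4*, *Dusp5* and *Dusp6*, like *Spry2* and *Spry4*, had positive values in all 4 of these comparisons.

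The Sprouty genes differed among themselves. *Spry2* rose from 24.3 to 26.7 CPM in scramble to 34.1 to 36.6 CPM in shSrsf3 samples without ligand (log2 fold change 0.44 ± 0.0443 standard error, edgeR adjusted p = 3.07e-06), and was higher by 0.35 with ligand (adjusted p = 2.68e-05, edgeR). *Spry4* was higher in shSrsf3 samples without ligand (0.48, standard error 0.0559, adjusted p = 1.16e-05, edgeR) but not called with ligand, where the samples measured 19.04 to 20.1 CPM in scramble and 19.3 to 22.1 CPM in shSrsf3 cells. That difference of 0.07 had a 95% interval from -0.0464 to 0.188. *Spry1* measured 13.5 to 14.1 CPM in shSrsf3 samples without ligand, inside the range of 12.1 to 15.3 CPM in scramble (-0.04, adjusted p = 0.788, edgeR). With ligand it was called lower in shSrsf3 samples (-0.26, adjusted p = 0.0379, edgeR), although 14.3 to 16.9 CPM in shSrsf3 overlapped with 16.9 to 21 CPM in scramble. This call was lost in 6 of the 12 fits with 1 sample left out, with -0.17 without scramble +PDGF-AA replicate 2 (adjusted p = 0.157) as the smallest change.

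The Spred genes had log2 fold changes between -0.20 and 0.10 in these comparisons. *Spred1*, mutated in Legius syndrome, measured 67.1, 65.2 and 73.3 CPM in the scramble -PDGF-AA samples and 60.8, 65.2 and 62.5 CPM in the shSrsf3 -PDGF-AA samples. These groups were separated by a gap of under 0.1 CPM. The difference without ligand was not called (-0.13, adjusted p = 0.0623, edgeR). It was -0.16 and called without scramble -PDGF-AA replicate 2 (adjusted p = 0.0448, edgeR), and -0.0616 without replicate 3 of that group. In the 9 libraries with higher mapping rates it was -0.23 and called (adjusted p = 0.00482, edgeR), with replicate 3 as the only scramble -PDGF-AA sample. With ligand the shSrsf3 samples were lower at 59.7, 56.2 and 59.6 CPM against 69.1, 63.8 and 69.3 CPM (-0.20, adjusted p = 0.00673, edgeR). *Spred3* was lower without ligand, at 10.4, 10.5 and 11.2 CPM against 11.95, 12.9 and 11.9 CPM (-0.20, adjusted p = 0.0269, edgeR). The groups of *Spred3* did not overlap, but the call was lost without scramble -PDGF-AA replicate 2 (-0.16, adjusted p = 0.107), shSrsf3 -PDGF-AA replicate 1 (-0.18, adjusted p = 0.0909) or shSrsf3 -PDGF-AA replicate 2 (-0.18, adjusted p = 0.0830, edgeR). *Spred2* lay between 49.2 and 55.9 CPM in all 12 samples and had values of 0.08 and 0.10 between the lines (adjusted p = 0.0945 and 0.0535, edgeR). Its value with ligand was called with relative log expression factors (0.10, adjusted p = 0.0414), in the 9 libraries with higher mapping rates (0.11, adjusted p = 0.0360), and without scramble -PDGF-AA replicate 3 (0.10, adjusted p = 0.0382) or scramble +PDGF-AA replicate 2 (0.11, adjusted p = 0.0440, edgeR). Between the lines, then, all 4 phosphatases, *Spry2*, *Spry4* and *Spred2* had positive values, and *Spry1*, *Spred1* and *Spred3* had negative values.

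**Figure D2:**
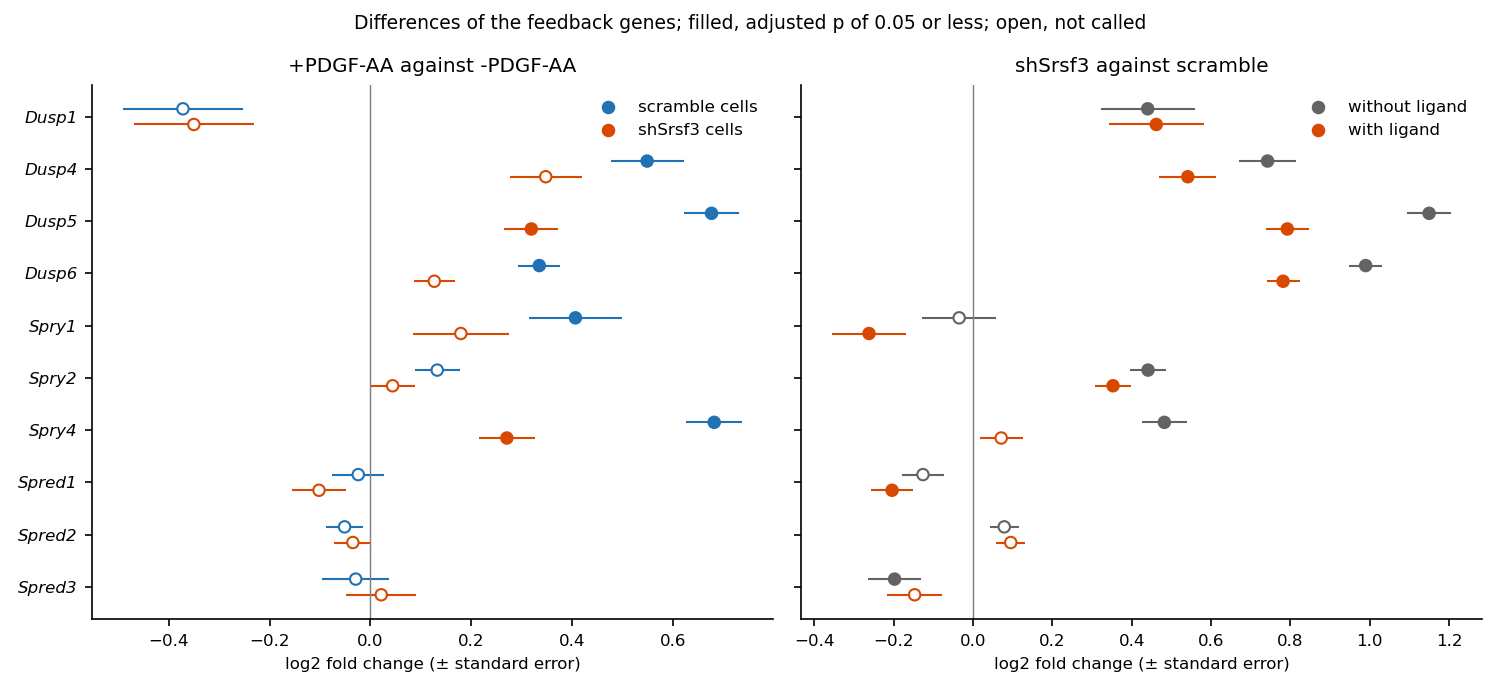
Log2 fold change of each feedback gene (points, with standard errors) upon ligand in each line (left) and between the lines without and with ligand (right). Filled points have an adjusted p of 0.05 or less. *Dusp4*, *Dusp5*, *Dusp6*, *Spry2* and *Spry4* lie right of 0 in all 4 comparisons. *Dusp1* lies left of 0 upon ligand and right of 0 between the lines.

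Whether the ligand acted differently in the lines was tested with the interaction, the log2 fold change upon ligand in shSrsf3 cells minus that in scramble cells. It was called for 0 of the 10 genes by edgeR, beside 0.00665% of tested genes higher and 0.00665% lower. An unadjusted p under 0.05 was reached by 3 members, beside 833 of the 15037 tested genes. All 3 had a smaller increase in shSrsf3 cells: *Spry4* (-0.41, standard error 0.0781, unadjusted p = 1.38e-04, adjusted p = 0.174), *Dusp5* (-0.36, standard error 0.0768, unadjusted p = 4.19e-04, adjusted p = 0.300) and *Dusp6* (-0.21, standard error 0.0587, unadjusted p = 0.00344, adjusted p = 0.672). DESeq2 called 2 of these, *Spry4* (-0.41, adjusted p = 0.0303) and *Dusp5* (-0.36, adjusted p = 0.0264). The sign of the interaction of these 3 genes was negative in every fit with 1 sample left out. Of all 10 members, 7 had a negative interaction, beside 7272 of the 15037 tested genes. The median was -0.14, beside 0.0048 over all tested genes.

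A log2 fold change compares ratios, and the shSrsf3 samples started from a higher level, so the step in CPM was also computed. For *Dusp5* it was 14.9 CPM (standard error 0.684) in scramble and 13.6 CPM (standard error 2.85) in shSrsf3 cells, a difference of -1.33 CPM with a standard error of 2.93. For *Dusp4* the steps were 20.2 CPM (standard error 2.03) and 19.8 CPM (standard error 6.31). The steps of these genes in CPM thus differed by less than their error, beside interactions of -0.36 for *Dusp5* and -0.20 for *Dusp4* (unadjusted p = 0.0696, edgeR) on the log2 scale. *Spry4* had steps of 7.39 CPM (standard error 0.341) and 3.54 CPM (standard error 0.937), a difference of -3.86 CPM with a standard error of 0.997. *Dusp6* had steps of 9.35 CPM (standard error 1.09) and 6.50 CPM (standard error 1.65). Of the 3 genes with an unadjusted p under 0.05, *Spry4* alone had a difference in the CPM step of more than 2 standard errors. These steps were compared with their errors only and not by a test.

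Levels of different genes were compared per transcript length, as CPM divided by the median length of the protein-coding transcripts of each gene. In scramble -PDGF-AA samples *Dusp1* was the most abundant member at 40.7 ± 8.64 CPM per kb (SD, n = 3), followed by *Dusp4* (21.2 ± 0.600 CPM per kb) and *Spred1* (16.4 ± 1.01 CPM per kb). *Dusp6*, *Spred2* and *Dusp5* followed at 12.7 ± 0.407, 11.995 ± 0.272 and 10.5 ± 0.409 CPM per kb. *Spry2* had 8.71 ± 0.442, *Spry1* 5.41 ± 0.662, *Spred3* 2.87 ± 0.130 and *Spry4* 2.28 ± 0.0432 CPM per kb. With these median lengths, neighbouring genes in this order differed by more than the sum of their SDs, although *Dusp6* and *Spred2* did so by little. The Sprouty genes were thus expressed below the phosphatases, and *Spry4*, which had one of the largest ratios upon ligand, was the least abundant member. In shSrsf3 +PDGF-AA samples, the 4 Dusp genes occupied the first 4 places. *Dusp4* (45.0 ± 4.11 CPM per kb) and *Dusp1* (43.2 ± 3.43 CPM per kb) differed there by less than the sum of their SDs, as did *Dusp5* (29.1 ± 0.780 CPM per kb) and *Dusp6* (27.6 ± 0.836 CPM per kb), while *Spred1* was at 14.04 ± 0.478 CPM per kb. With the longest coding transcript in place of the median one, *Dusp6* and *Spred1* exchanged places in scramble -PDGF-AA samples (12.5 and 10.8 CPM per kb). *Spred1* (SD 0.667), *Spred2* (10.6 ± 0.240 CPM per kb) and *Dusp5* (10.1 ± 0.391 CPM per kb) then differed from each other by less than the sum of their SDs. The SD does not cover the choice of transcript length.

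**Figure D3:**
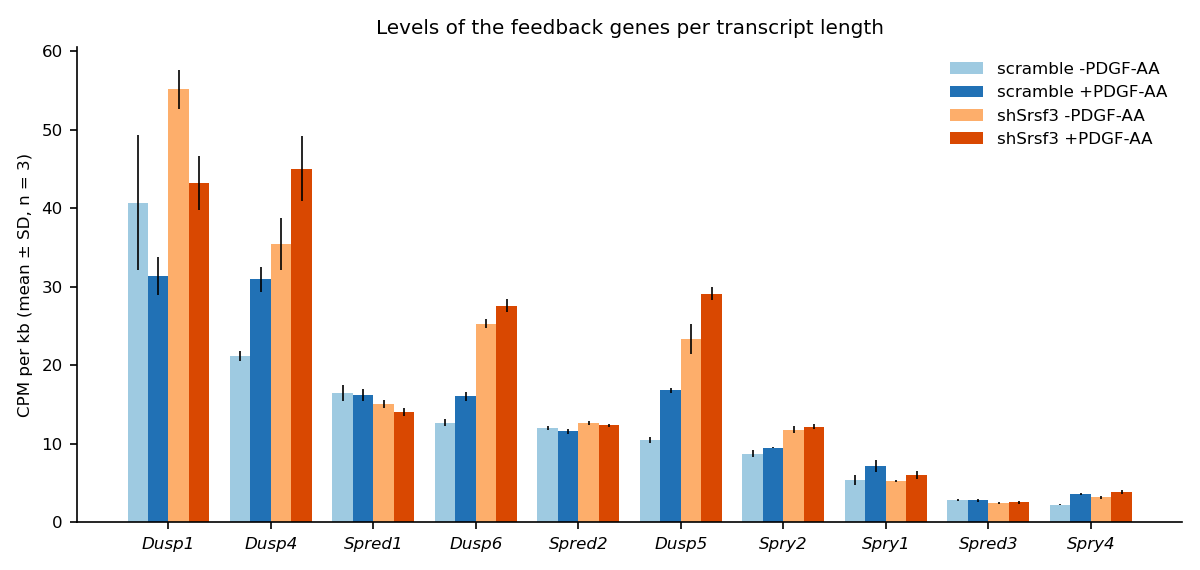
Level of each feedback gene per transcript length (CPM per kb, mean ± SD, n = 3) in the 4 conditions, ordered by the level in scramble -PDGF-AA samples. *Dusp5* and *Dusp6* lie above *Spred1* and *Spred2* in shSrsf3 samples, and *Spry4* and *Spred3* are lowest in each condition.

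Across the 12 samples, the log2 CPM of *Dusp4*, *Dusp5* and *Dusp6* varied together, with Pearson correlations between 0.91 and 0.97. *Spry2* correlated with *Dusp6* at 0.97, and *Spry4* with *Dusp4* at 0.86, whereas *Dusp1* had 0.25 with *Dusp4* and *Spry1* had -0.11 with *Dusp6*. These values describe 4 separate clusters of 3 samples that share libraries and are given without a test. The 2 genes outside the 10 with the most similar pattern, among 12252 candidates, were *Ereg* (0.99), which encodes the EGF receptor ligand epiregulin, and *Nipal1* (0.99) for *Dusp4*. They were *Dnajb1* (0.99), a co-chaperone, and *Ckb* (0.99), brain creatine kinase, for *Dusp5*, and *S1pr3* (0.99), a receptor for sphingosine-1-phosphate, and *Net1* (0.99), an activator of RhoA, for *Dusp6*. *Spry2* was most like *Adm* (0.99), which encodes adrenomedullin, and *Net1* (0.99). *Spry4* was most like *Plk3* (0.97) and *Arc* (0.95), both known early response genes. These were picked for likeness to *Spry4*, which itself rose upon ligand in scramble cells. Their rise there (0.85 and 1.47 on the log2 scale) is therefore no separate result. *Dusp1* and *Spred2* shared *Vegfb* (0.95 and 0.94), with *Stx3* (0.94) for *Dusp1* and *Pias2* (0.94) for *Spred2*. *Spry1* was most like *Sertad1* (0.89) and *Tox4* (0.88), the lowest values of the 10 genes. *Spred1* was most like *Zfp58* (0.96) and *Epm2aip1* (0.95), and *Spred3* was most like *Phf14* (0.94) and *Ttc14* (0.93).

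The other genes of the pathway were described with 4 lists, whose counts are read beside the shares of all tested genes. Upon ligand, 2.00% were higher and 2.04% lower in scramble cells, and 0.426% and 0.140% in shSrsf3 cells. Between the lines, 22.2% were higher and 23.7% lower in shSrsf3 cells without ligand, and 20.3% and 20.7% with ligand. An unadjusted p under 0.05 (edgeR) upon ligand in shSrsf3 cells was reached by 1420 of the 15037 tested genes. Of the 6 other MAP kinase phosphatases (*Dusp2*, *Dusp7*, *Dusp8*, *Dusp9*, *Dusp10* and *Dusp16*), 1 rose upon ligand in scramble cells, 0 were called in shSrsf3 cells by edgeR (2 had an unadjusted p under 0.05), and 5 and 4 were higher in shSrsf3 than in scramble cells without and with ligand, with none lower. The gene that rose upon ligand was *Dusp2*, which measured only 0.114 ± 0.0356 CPM without and 0.398 ± 0.0402 CPM with ligand (SD, n = 3). Its log2 fold change was 1.73 (standard error 0.439, adjusted p = 0.0435, edgeR), and that between the lines without ligand was 1.42 (adjusted p = 0.0208, edgeR). *Dusp9*, a cytoplasmic phosphatase like *Dusp6*, rose from 1.98 ± 0.438 to 4.33 ± 0.219 CPM with knockdown (SD, n = 3; log2 fold change 1.13, adjusted p = 1.11e-04, edgeR). Only *Dusp7* of the 6 had negative values between the lines, of -0.04 in both comparisons. The median of the list between the lines was 0.69 without and 0.58 with ligand.

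Of the 15 other negative regulators of Ras and ERK, 14 were tested. Upon ligand in scramble cells 1 rose, *Errfi1*, an inhibitor of the EGF receptor (0.80, standard error 0.109, adjusted p = 0.00100, edgeR), and 1 fell, the Ras inactivator *Dab2ip* (-0.15, adjusted p = 0.0383, edgeR). In shSrsf3 cells 0 of the 14 were called upon ligand by edgeR, and 0 had an unadjusted p under 0.05. *Errfi1* resembled *Spry4* in that it was higher in shSrsf3 cells without ligand (0.53, adjusted p = 0.00138) and not called with ligand (-0.08, adjusted p = 0.605, edgeR). Between the lines 6 were higher and 5 lower without ligand (beside 22.2% and 23.7% of tested genes), and 4 and 5 with ligand (20.3% and 20.7%). *Il17rd*, which encodes the membrane inhibitor Sef and is expressed with Sprouty genes in embryos, was lower in shSrsf3 cells (-0.60 and -0.63, adjusted p = 3.02e-06 and 2.47e-06, edgeR), as was *Lrig3* (-0.43 and -0.40, adjusted p = 7.60e-06 and 2.15e-05, edgeR). The negative regulators as a list thus had no shared direction, with medians of 0.06 and -0.05 between the lines.

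The 29 genes of the cascade itself, from *Pdgfra* to the kinases downstream of ERK, moved little upon ligand. In scramble cells 0 rose and 2 fell, *Pdgfra* (-0.30, adjusted p = 0.00764) and the adaptor *Gab1* (-0.17, adjusted p = 0.0438, edgeR). In shSrsf3 cells 0 were called by edgeR, with 1 at an unadjusted p under 0.05. Between the lines 12 were higher and 11 lower without ligand (beside 22.2% and 23.7% of tested genes), and 8 and 8 with ligand (20.3% and 20.7%). The largest were *Rps6ka2*, an ERK-activated kinase (0.89 and 0.86, adjusted p = 1.17e-08 and 1.78e-08), and *Mknk1*, which phosphorylates eIF4E (-0.77 in both, adjusted p = 1.41e-07 and 2.04e-07, edgeR). The median log2 fold change of this list was between -0.0057 and -0.0045 in the 4 comparisons.

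Among 15 other output genes of ERK, 7 rose upon ligand in scramble and 5 rose in shSrsf3 cells, where 1 fell. *Egr1*, an immediate early transcription factor, rose from 29.3 ± 3.07 to 79.4 ± 13.1 CPM in scramble and from 53.4 ± 4.59 to 112 ± 8.78 CPM in shSrsf3 cells (SD, n = 3), with log2 fold changes of 1.44 and 1.08 (adjusted p = 9.66e-06 and 2.84e-04, edgeR). *Fosb* rose by 0.90 in scramble and 1.03 in shSrsf3 cells (adjusted p = 0.00263 and 0.00248, edgeR). The gene that fell there, *Fos*, which is named after its value was seen, had -0.58 (adjusted p = 0.0128) and -0.04 in scramble cells (adjusted p = 0.886, edgeR). Between the lines 10 were higher and 2 lower in both comparisons, with medians of 0.33 and 0.26. Of all tested genes, 22.2% were higher and 23.7% lower without ligand, and 20.3% and 20.7% with ligand. *Etv1*, an ETS factor that is a transcriptional output of FGF and ERK signaling, was higher by 1.01 and 1.24 (adjusted p = 1.29e-06 and 2.27e-07, edgeR). The median of the feedback genes and that of the output genes lay above that of the cascade genes in all 4 comparisons.

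**Figure D4:**
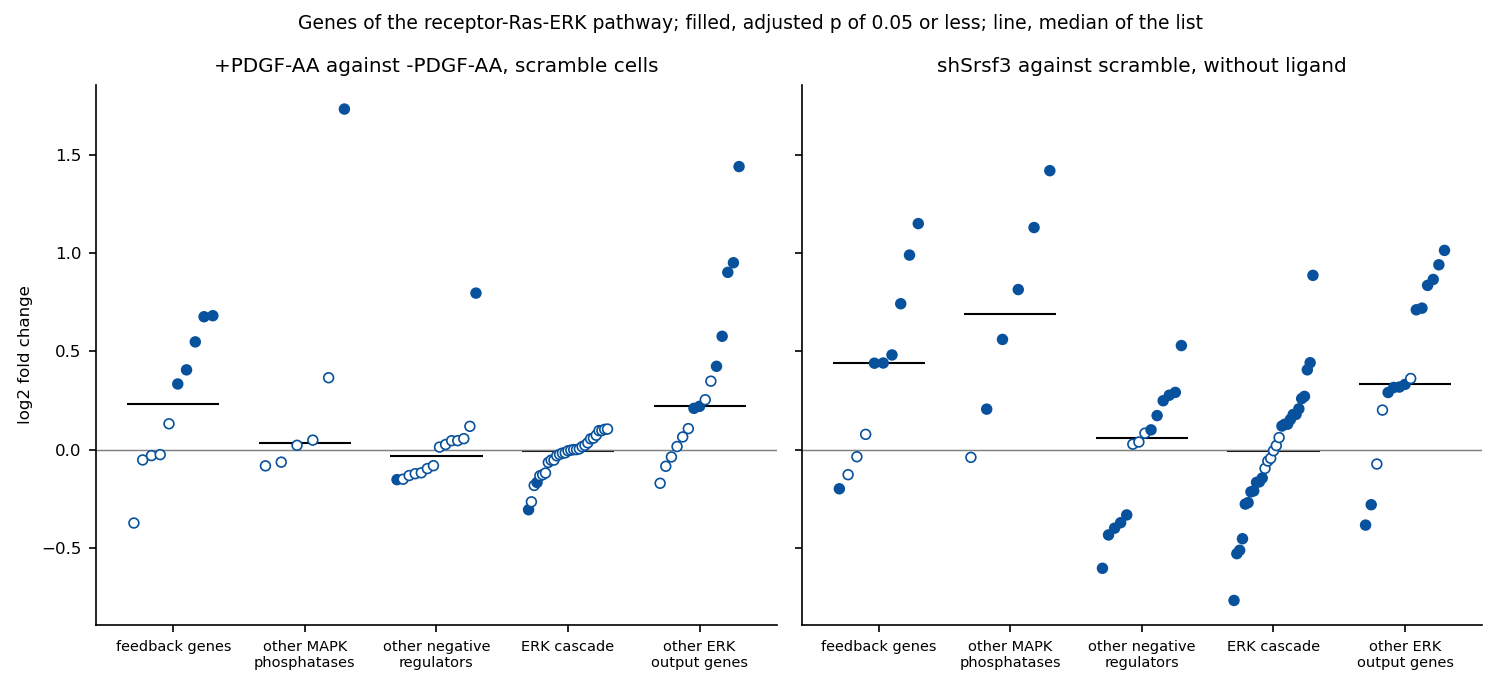
Log2 fold change of each tested gene of the feedback genes and of 4 lists of the receptor, Ras and ERK pathway, upon ligand in scramble cells (left) and between the lines without ligand (right). Each point is a gene, filled where called, and bars are medians; the ERK cascade genes spread evenly around 0, while 7 of the 10 feedback genes are above 0 on the right.

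The 10 genes lie on 10 different chromosomes of GRCm39 in the GENCODE M39 annotation. The phosphatases are *Dusp1* (chromosome 17, 26724564 to 26781102, minus strand, 4 exons), *Dusp4* (chromosome 8, 35274442 to 35287048, plus strand, 4 exons), *Dusp5* (chromosome 19, 53517532 to 53530862, plus strand, 4 exons) and *Dusp6* (chromosome 10, 99086564 to 99103361, plus strand, 3 exons). The Sprouty genes have 2 or 3 exons: *Spry1* (chromosome 3, 37693897 to 37698755, plus strand), *Spry2* (chromosome 14, 106128766 to 106136446, minus strand) and *Spry4* (chromosome 18, 38719300 to 38736025, minus strand). The Spred genes have 6 or 7 exons: *Spred1* (chromosome 2, 116951524 to 117018277, plus strand), *Spred2* (chromosome 11, 19874355 to 19974442, plus strand) and *Spred3* (chromosome 7, 28857984 to 28869836, minus strand). Sequences of 31 bases shared with transcripts of other genes made up 3.17% of *Spred2*, under 1% of *Dusp4*, *Spry2* and *Spred3*, and 0 in the other 6, so that few reads could be split between copies. An annotated gene on the opposite strand overlaps 7 of the 10, among them the protein-coding *Ergic1* at *Dusp1* and *Ggn* at *Spred3*. The libraries were stranded, but whether the quantification used the strand is not given in the sources used here, so reads of such pairs cannot be told apart with certainty.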

How the data were processed

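RNA-seq was performed on 12 iMEPM samples (3 replicates in each of 4 conditions), assigned to conditions by their labels. The authors trimmed stranded, paired reads with BBDuk, assigned them to GENCODE M26 transcripts (GRCm39) with Salmon (1.4.0), and used tximport to sum transcripts per gene symbol. The deposited values are expected counts, that is, read pairs per gene as estimated by Salmon, without scaling to library size. The version and scaling of tximport are not given in the sources used here. All 12 sample columns were used.

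The expected counts, of which 16.3% were not whole numbers, were rounded, filtered with filterByExpr (minimum count 10) in edgeR 4.0.16, and scaled with TMM factors. The quasi-likelihood test of 15037 genes used 1 model with 4 group means. P-values were adjusted by the Benjamini-Hochberg method over all of them, and genes were called at 0.05 or less. Standard errors were derived from the log2 fold change and its F statistic, and 95% intervals cover the spread between replicates only. The code was tested on simulated data. Alternative fits used DESeq2 1.42.0. The scripts ran in R 4.3.3 and in Python 3.11 with numpy 2.4.6, pandas 2.3.3 and matplotlib 3.10.9. An exact permutation test of 3 samples against 3 cannot give a p below 0.1 and was not used.

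Members and gene lists were chosen with earlier results of these data known. Named were all members, the genes of each list called with a fold change of 2 or more or otherwise the 2 with the largest change among those called, and the 2 genes most like each member with a mean count of at least 50. Gene positions came from a later annotation than that of the authors (GENCODE M39) on the same build.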

Additional observations from a re-analysis of the deposited data

How the results depend on the processing

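With the rule of a 2-fold change, the number of members called was 0 upon ligand in scramble and shSrsf3 cells, 1 between the lines without ligand and 0 with ligand, in place of 5, 2, 7 and 7. Upon ligand in shSrsf3 cells, 4 members were called without a filter for low counts, with only the groups compared in the fit, and in the 9 libraries with higher mapping rates, in each case 3 higher (*Dusp4*, *Dusp5* and *Spry4*) and 1 lower (*Dusp1*), and between 0 and 4 with 1 sample left out, the 4 again including *Dusp1* as lower. Leaving out 1 sample gave 4 to 6 members upon ligand in scramble cells (the 6 including *Dusp1* as lower), 6 to 7 and 6 to 8 between the lines, and 0 for the interaction. The interaction was called for 2 members by DESeq2 and for 2 without the filter for low counts, beside 26 and 218 of all tested genes. With the replicate block, 5, 3, 7, 7 and 0 members were called, the third one in shSrsf3 cells being *Dusp4* (0.35, adjusted p = 0.0483, edgeR), and no other call changed. Same-numbered samples did not deviate together (correlations between -0.14 and 0.20), so the numbers were not taken as pairs.

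Over all tested genes, the number called upon ligand in scramble cells was 608, with 1289 without the low-count filter, 247 with only the groups compared, and 243 to 1472 with 1 sample left out. In shSrsf3 cells it was 85, with 213 by DESeq2, 374 without the filter, 201 with only the groups compared, 231 in the 9 libraries, and 23 to 168 with 1 sample left out. The interaction was called for 2 genes, with 26 by DESeq2, 218 without the filter, 1 with the block, 16 in the 9 libraries, and 1 to 6 with 1 sample left out.

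The sign turned in values that were not called. In the 9 libraries these were *Dusp1* upon ligand in scramble cells (0.0065) and its interaction (-0.36), for which the scramble -PDGF-AA group is replicate 3 alone, assumed to vary like the other groups. With 1 sample left out, the ranges were -0.0576 to 0.0392 for *Spred1* and -0.0646 to 0.0262 for *Spred3* upon ligand in scramble cells, -0.0227 to 0.0733 for *Spred3* upon ligand in shSrsf3 cells, -0.12 to 0.0227 for *Spry1* between the lines without ligand, and -0.11 to 0.18, -0.0021 to 0.0348 and -0.0053 to 0.10 for the interaction of *Dusp1*, *Spred2* and *Spred3*. Of the values of single members with 1 sample left out, 552 kept their sign and side of the threshold, 25 lost the call, 8 gained it and 15 turned sign, and under the other settings these were 268, 3, 17 and 2. The cause of these changes was not tested.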
